A study of Homo sapiens with 36 samples.

Results

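A set of 10 genes carries the signal of the common gamma chain (γc) cytokines, and the RNA levels of these genes and their responses to GATA3 knockdown were measured in 7 human T cell neoplasm lines. The 10 were taken by symbol from a deposited table of 60628 genes: the shared chain IL2RG, the cytokine-specific chains IL2RA, IL2RB, IL4R, IL7R, IL9R, IL15RA and IL21R, and the kinases JAK1 and JAK3. All 10 passed the filter on low counts. The rule goes by symbol and uses no measured value, although the set was proposed with earlier results of these data known.

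The γc cytokines are interleukins 2, 4, 7, 9, 15 and 21. Each binds its own receptor chain, which pairs with γc at the cell surface. γc carries JAK3 and the signalling partner chains carry JAK1, while the alpha chains IL2RA and IL15RA bind cytokine without a kinase. The activated kinases phosphorylate STAT proteins that enter the nucleus. In T cells this pathway supports survival, growth and helper differentiation, and inherited loss of IL2RG or JAK3 leaves a child without T cells.

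The study asked what the transcription factor GATA3 does in T cell neoplasms, by sequencing polyadenylated RNA from lines with a hairpin against GATA3 or a scrambled hairpin. H9 (2 control and 3 knockdown libraries), MyLa (MylaCD4+ in the labels, 3 and 3) and Mac1 (2 and 2) are labelled cutaneous T lymphocytes and are called the CTCL class here. THP6 (3 control and 2 knockdown libraries), MOLT4 (2 and 2), CCRF-CEM (3 and 3) and SUP-T1 (3 and 3) are labelled acute lymphoblastic leukemia and are called the T-ALL class. The genotype field reads WT for control libraries, although their titles name the scrambled hairpin. Each line is an established culture, so a class difference rests on 3 lines against 4. Whether replicates came from separate cultures, and whether knockdown replicates shared a hairpin, is not in the labels. The p-values therefore measure the spread among the libraries alone, and that spread may be technical.

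Library totals ran from 18.62 to 50.63 M counts. Levels are CPM, counts relative to the TMM-scaled library total in M. In 6 lines all knockdown libraries had less GATA3 than any control library, with log2 fold changes from -1.45 in MOLT4 to -0.72 in MyLa. In SUP-T1 it went against the labels: libraries labelled knockdown held 77.2 to 86.6 CPM against 23.6 to 24.4 CPM in those labelled control (log2 difference 1.76). Every SUP-T1 direction below is therefore given by label, as knockdown relative to control. The knockdown libraries of THP6 stood apart from each other, with 55.7 and 73.5 CPM of GATA3. The 14 T cell markers summed to between 441 CPM in a Mac1 control and 5544 CPM in a SUP-T1 control. Mac1 controls listed 7 of the 14 at 0 (CD3D, CD3E, CD3G, CD7, CD28, LCK and TRBC1) and MyLa controls listed CD28 at 0. Some markers of other cells were high in some lines. COL3A1 reached 198 CPM in MyLa controls, where 6 fibroblast markers summed to 274 to 318 CPM. Only 2 of these 6 had 1 CPM or more, and DCN and LUM were at 0. CD79A reached 186 CPM in H9 controls, where 6 B cell markers summed to 269 to 292 CPM. None of these was at 0, but only 3 of the 6 had 1 CPM or more. The part of such markers in the results below was not tested.

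The shared chain IL2RG (ENSG00000147168, GRCh38 chromosome X, 71107404 to 71112108, minus strand) was abundant in every line. In bulk RNA, fewer cells carrying a transcript and less of it per cell cannot be told apart. Control libraries held 452 to 476 CPM in H9, 439.7 to 463 in THP6, 279 to 297 in CCRF-CEM, 274 to 285 in MOLT4, 230.5 to 242 in SUP-T1, 175 to 185 in MyLa and 78.9 to 89.9 in Mac1. The highest mean was 5.5 times the lowest, the narrowest span of the 9 members detected in every line. H9 and THP6 did not differ beyond their spread (edgeR adjusted p = 0.6267), nor did CCRF-CEM and MOLT4 (adjusted p = 0.6257). Per kilobase of exon, IL2RG was the highest of the 10 genes in H9 (168 CPM per kb), THP6 (163.5), CCRF-CEM (104), MOLT4 (101) and SUP-T1 (85.3).

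IL2RA (ENSG00000134460, chromosome 10, 6010689 to 6062370, minus strand), the alpha chain that raises affinity for interleukin 2, had the widest span. It held 1941 and 2110.3 CPM in Mac1 controls, 342 to 372 in MyLa and 4.85 and 4.86 in H9, against at most 0.228 CPM in any T-ALL control library. Per kilobase it was the highest member in Mac1 (511 CPM per kb) and MyLa (89.1). IL2RB (ENSG00000100385, chromosome 22, 37125838 to 37175054, minus strand), the beta chain shared by the interleukin 2 and 15 receptors, held 691 and 766 CPM in Mac1 and 65.3 to 88.2 in MyLa and H9. It held 21.4 to 25.3 CPM in THP6 and 1.39 to 5.98 in the other T-ALL controls. IL15RA (ENSG00000134470, chromosome 10, 5943639 to 5978187, minus strand), which presents interleukin 15, lies next to IL2RA. Its control level fell in every step from Mac1 (53.0 and 56.9 CPM) through MyLa (39.0 to 40.5), H9 (22.5 and 23.2), THP6 (5.79 to 7.78), CCRF-CEM (4.15 to 4.71) and MOLT4 (0.324 and 0.596) to SUP-T1 (0.0544 to 0.189), and all 6 steps passed the test.

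IL4R (ENSG00000077238, chromosome 16, 27313668 to 27364778, plus strand), the receptor for interleukins 4 and 13, ranged from 212 ± 3.05 CPM in Mac1 (SD, n = 2) to 4.87 ± 0.441 in SUP-T1 (n = 3). IL21R (ENSG00000103522, chromosome 16, 27402162 to 27452042, plus strand) is its neighbour on the chromosome. It ranged from 361 ± 19.8 CPM in Mac1 (n = 2) to 0.884 ± 0.240 in SUP-T1 (n = 3), and all 6 steps between neighbouring lines passed the test. IL21R, like IL2RG, was not ordered by class, since CCRF-CEM (89.6 to 99.5 CPM) and THP6 (71.4 to 78.4) exceeded H9 (54.5 and 57.5).

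IL7R (ENSG00000168685, chromosome 5, 35852695 to 35879603, plus strand), the interleukin 7 receptor on which thymocytes depend, was highest in SUP-T1 (31.6 to 33.1 CPM) and MyLa (26.9 to 31.9), which did not differ beyond their spread (adjusted p = 0.2346). It was near the detection limit in Mac1 (0.348 and 0.706 CPM) and H9 (0.370 and 0.621). IL9R (ENSG00000124334, chromosome X, 155997581 to 156010817, plus strand, in the pseudoautosomal region) was highest in MyLa, with 83.5 to 93.7 CPM. It followed in THP6 (23.5 to 29.7), CCRF-CEM (10.9 to 12.8), H9 (8.67 and 9.38), MOLT4 (7.01 and 7.92), SUP-T1 (4.27 to 4.86) and Mac1 (1.81 and 2.96). IL9R has near-identical pseudogene copies, and its values are uncertain where the counting split reads between them. The copy IL9RP3 held 0.303 to 4.98 CPM in controls.

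JAK1 (ENSG00000162434, chromosome 1, 64833229 to 64966504, minus strand) held 371 and 402 CPM in Mac1 controls and 31.9 and 35.9 in MOLT4. JAK3 (ENSG00000105639, chromosome 19, 17824780 to 17848071, minus strand), the kinase bound to γc, held 297 to 317 CPM in MyLa, 234 and 236 in Mac1, 113 and 129 in H9, and 15.8 to 32.7 in CCRF-CEM, MOLT4 and THP6. In SUP-T1 no count of JAK3 was recorded in any of 6 libraries, which allows up to 0.017 CPM (3 counts over all 6, counting error only). Genes nearby were read in SUP-T1 controls: CCDC124 at 152 CPM, MAP1S at 67.7 CPM and FCHO1 at 36.2 CPM. INSL3, UNC13A and SLC5A5 were also at 0 there. IL2RG, which binds JAK3, was read at 230.5 to 242 CPM in the same control libraries.

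**Figure D1:**
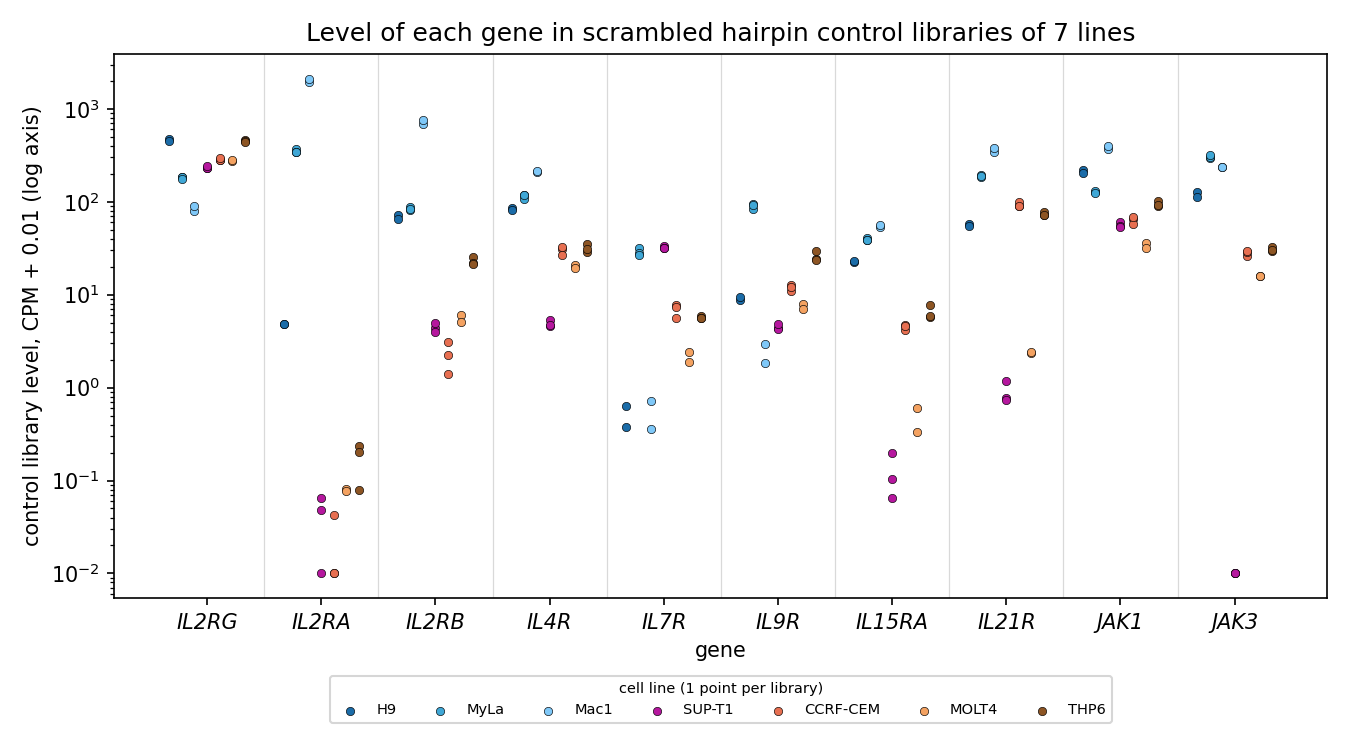
Control level of each of the 10 genes in each line, as CPM + 0.01 on a log axis, with 1 point per control library. IL2RG spans the narrowest range among genes detected in every line, while IL2RA and IL15RA fall from Mac1 toward the T-ALL lines and JAK3 is at 0 in SUP-T1.

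By class, 6 of the 10 genes (IL2RA, IL2RB, IL4R, IL15RA, JAK1 and JAK3) had every CTCL control library above every T-ALL control library, against 3.96% of all genes tested, and 0 had the opposite order (3.84%). With the line as the unit of replication, 0 of 10 passed the edgeR test between classes (0.28% of 18565 genes did). Of these genes 2563 had an unadjusted p under 0.05, 5 of them members. DESeq2 called 4 members (IL2RA, IL4R, IL15RA and JAK1) and 1479 genes. The log2 differences, CTCL minus T-ALL, were 5.10 for IL2RB (SE 1.21, adjusted p = 0.1554), 2.698 for IL4R (SE 0.645, adjusted p = 0.1566) and 1.98 for JAK1 (SE 0.468, adjusted p = 0.1531). IL2RA, the nearest to the threshold (adjusted p = 0.07056), passed it without H9 (adjusted p = 0.01096). IL2RG (-0.35, SE 0.551) and IL7R (-0.20, SE 1.56) had differences smaller than their errors. In the order of lines, 47 of 60 neighbouring pairs differed beyond their spread. The 60 include pairs of T-ALL lines for IL2RA, with control means of at most 0.163 CPM. Neighbouring pairs were not counted for all genes. Over all 21 pairs of lines, neighbouring or not, 63% of gene tests passed (55.1% to 68.5% by pair).

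Over the 7 control means, IL4R was most alike to JAK3 (Pearson r = 0.965 of log2 CPM) and IL15RA (0.959), IL15RA to IL21R (0.931), and IL2RB to JAK1 (0.921) and IL2RA (0.904). These are descriptions over 7 points that share libraries. Among 13771 genes at 5 CPM or more in some line, the closest to IL2RG were KRBOX4 (0.989), CLHC1 (0.981) and KLHDC10 (0.979), and the closest to IL7R were KCNA6 (0.984), RGPD1 (0.979) and ENO2 (0.970). NIBAN1 (0.988), NOTCH2NLB (0.984) and PARP12 (0.984) were closest to JAK3. With Spearman's measure 0, 0 and 1 of these 3 genes were again closest to IL2RG, IL7R and JAK3.

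Promoter sequence was read for 9 of the 10 genes from RefSeq (GRCh38.p14). The letters AGATAA or AGATAG or TGATAA or TGATAG, the core that GATA proteins bind, were searched on both strands in the 250 bases before each of 14 start sites. They stood in 3 windows, and in 22.3% of 35116 promoters of that length. The 3 stretches are shown because IL7R and IL9R are the members called in the most lines beside IL2RG, and JAK3 is the kinase of γc; capitals mark the letters matched, on the strand of the gene.
IL7R, chr5:35856843-35856872, plus strand: ttgtctgtggttAGATAAgtataaagccct
IL9R, chrX:155997655-155997684, plus strand: caactgctgcagTTATCTcctgaatcaggc
JAK3, chr19:17848183-17848212, minus strand: cccttctctgtgCTATCAtcagttcctttg
The match lies 36 bases before the RefSeq start in IL7R, 29 in IL9R and 218 in JAK3. The gene spans given earlier come from GENCODE 29, whose outermost starts differ. By those spans the IL7R and IL9R stretches lie inside the gene, which begins at 35852695 and 155997581. The JAK3 stretch lies before its start at 17848071. A letter match is a description of sequence, not a bound site. The STAT letters TTCNNNGAA stood in 1 window, of IL15RA, and in 6.57% of promoters.

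IL9R responded in the most lines. In CCRF-CEM control libraries held 10.9, 12.8 and 12.1 CPM and knockdown libraries 4.54, 3.60 and 4.17, so that the groups lay well apart (log2 fold change -1.54, SE 0.135, edgeR adjusted p = 3.459e-09). In H9 it fell from 8.67 and 9.38 CPM to 5.67, 5.09 and 4.67 (-0.81, SE 0.147, adjusted p = 0.001436), a call lost with replicate numbers as a block (adjusted p = 0.07642). In THP6 it fell from 29.7, 24.0 and 23.5 CPM to 13.7 and 17.2 (-0.74, SE 0.133, adjusted p = 0.00111), a call lost when THP6 was fitted alone (adjusted p = 0.7531). The arms of IL9R did not overlap in these 3 lines, nor in any other line, MyLa included, where it was not called. How many of all genes had such separation was not counted. In Mac1 it fell from 2.96 and 1.81 CPM to 1.31 and 1.61 (-0.73, SE 0.214, adjusted p = 0.03107), which failed without control 1 (-0.31, adjusted p = 0.6618), without either knockdown library, in a separate fit and with limma-voom. In MOLT4 IL9R rose, from 7.92 and 7.01 CPM to 11.9 and 11.9 (0.68 on the log2 scale, SE 0.153, adjusted p = 0.001825). The libraries of SUP-T1 labelled knockdown were also higher, at 6.46, 7.75 and 8.28 CPM against 4.32, 4.27 and 4.86 (0.74, SE 0.134, adjusted p = 0.0001729). MyLa, the line with the most IL9R, held 93.7, 83.5 and 92.7 CPM in controls and 76.5, 81.0 and 82.6 in knockdowns (-0.17, SE 0.110, adjusted p = 0.6452). IL9R thus had the sign of the GATA3 change in 6 of 7 lines, MOLT4 being the exception, and in 5 of its 6 calls. Sign counts here and below include changes that did not pass, and they were not made for all genes. Other members were mixed: IL4R had that sign in 5 of 7 lines, IL21R in 4 of 7, and IL2RB and JAK1 in 3 of 7. Of lines with enough counts, IL15RA had it in 3 of 6, JAK3 in 2 of 6 and IL2RA in 1 of 4.

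IL7R had the opposite sign to GATA3 in 7 of 7 lines, counting changes that did not pass, and passed the test in 3. In CCRF-CEM it rose from 7.65, 5.66 and 7.44 CPM to 12, 11.8 and 13.2 (log2 fold change 0.82, SE 0.128, edgeR adjusted p = 5.461e-05). In MOLT4 it rose from 2.41 and 1.89 CPM to 4.35 and 4.90 (1.11, SE 0.184, adjusted p = 4.915e-05). In SUP-T1, where GATA3 was higher in the libraries labelled knockdown, these held 23.5, 24.5 and 22.8 CPM of IL7R against 33.1, 31.6 and 32.0 (-0.45, SE 0.116, adjusted p = 0.006376). The arms did not overlap in any of the 3, nor in H9 and MyLa, where IL7R was not called. Every alternative fit other than a minimum absolute log2 fold change of 1 kept the 3 calls. In MyLa the values were 31.9, 27.9 and 26.9 CPM against 34.4, 35.6 and 32.6 (0.24, adjusted p = 0.4469). The log2 fold changes of H9 (0.58), THP6 (0.24) and Mac1 (0.11) did not pass.

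IL2RG had the opposite sign to GATA3 in 6 of 7 lines, and in all 4 of its calls. Mac1, the line with the least of it, showed the largest change: 78.9 and 89.9 CPM in controls and 141 and 149 in knockdowns, 1.72-fold higher (log2 0.78, SE 0.0717, edgeR adjusted p = 1.987e-08). In SUP-T1 it was lower in the libraries labelled knockdown, at 188, 187 and 176 CPM against 230.5, 234 and 242 (-0.36, SE 0.0578, adjusted p = 3.731e-05). The rises in MOLT4, from 274 and 285 to 329.8 and 318 CPM (0.22, SE 0.0705, adjusted p = 0.02947), and in CCRF-CEM, from 285, 279 and 297 to 326, 325 and 325 CPM (0.18, SE 0.0576, adjusted p = 0.04935), were small. The MOLT4 call was lost when any of the line's 4 libraries was left out (adjusted p up to 0.2035), and the CCRF-CEM call when any of its 6 was left out (up to 0.1208) and with DESeq2 size factors (0.09109). Without the filter on low counts neither held (0.2526 and 0.4338). H9 (-0.07), MyLa (0.12) and THP6 (0.14) did not pass. IL2RG shares 1403 exon bases on its strand with AL590764.2, which drew 1760 counts over all 36 libraries.

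IL15RA in MOLT4 was the largest change of any member. Controls held 0.324 and 0.596 CPM (9 and 18 counts) and knockdowns 5.75 and 4.45 CPM (168 and 128 counts), 10.9-fold higher (log2 3.44, SE 0.238, edgeR adjusted p = 6.896e-12). The call held in all 11 alternative fits of this response, with log2 fold changes of 3.09 to 3.96. Among neighbouring genes in MOLT4, FBH1 had 88.2 CPM in controls and 107 in knockdowns, RBM17 123 and 161, ANKRD16 16.7 and 15.9, and GDI2 395.5 and 409. IL2RA, its neighbour on the other side, held 0.069 CPM in both arms. The ligand gene IL15 rose in the same libraries, from 0.745 ± 0.118 to 2.33 ± 0.144 CPM (SD, n = 2 and 2, log2 1.64, adjusted p = 2.949e-05). In the other lines IL15RA did not pass, and in H9 it held 22.5 and 23.2 CPM against 20.8, 19.2 and 19.8.

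IL2RB, the other chain of the interleukin 15 receptor, also rose in MOLT4, from 5.98 and 5.06 to 13.3 and 12.5 CPM (log2 1.23, SE 0.155, edgeR adjusted p = 8.073e-07). In SUP-T1 it was 2.8-fold higher in the libraries labelled knockdown, at 12.1, 11.9 and 13.2 CPM against 4.32, 4 and 4.96 (1.49, SE 0.130, adjusted p = 9.928e-10). GATA3 moved in opposite directions in these 2 lines. In H9 all 3 knockdown libraries (52.2, 49.2 and 52.5 CPM) lay below both controls (71.8 and 65.3), yet the test missed the threshold (-0.42, SE 0.117, adjusted p = 0.06465), which DESeq2 (adjusted p = 0.004195), limma-voom and 2 other fits passed. IL2RA passed the test in Mac1 alone, from 1941 and 2110.3 to 2719.6 and 2819.7 CPM (0.45, SE 0.130, adjusted p = 0.03171), and the call was lost when any of the 4 libraries was left out (adjusted p up to 0.2308).

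IL21R fell in CCRF-CEM, from 90.0, 99.5 and 89.6 to 42.8, 36.8 and 40.7 CPM (log2 fold change -1.21, SE 0.142, edgeR adjusted p = 7.352e-07), with no overlap. IL21R shares 1273 exon bases with IL21R-AS1 on the other strand, which drew 424 counts over all 36 libraries. In THP6 its knockdown libraries disagreed, with 94.9 CPM in the first and 45.4 in the second against 71.4 to 78.4 in controls. IL4R rose in Mac1 from 209.5 and 214 to 251 and 288 CPM (0.35, SE 0.101, adjusted p = 0.03023), a call lost without either control and without knockdown 2, and fell in MOLT4 from 20.7 and 19.2 to 13.6 and 14.7 CPM (-0.49, SE 0.112, adjusted p = 0.001793).

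JAK1 passed the test in no line, with log2 fold changes from -0.16 in MOLT4 to 0.24 in THP6. JAK3 was called in THP6, from 29.9, 32.7 and 30.4 to 33.0 and 47.9 CPM (0.39, SE 0.117, edgeR adjusted p = 0.04462). Without knockdown 2 the log2 fold change was 0.09 (adjusted p = 0.9001), and the call was also lost when any control library was left out. In H9 JAK3 held 129 and 113 CPM in controls and 103, 80.7 and 104 in knockdowns (-0.33, adjusted p = 0.1676).

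**Figure D2:**
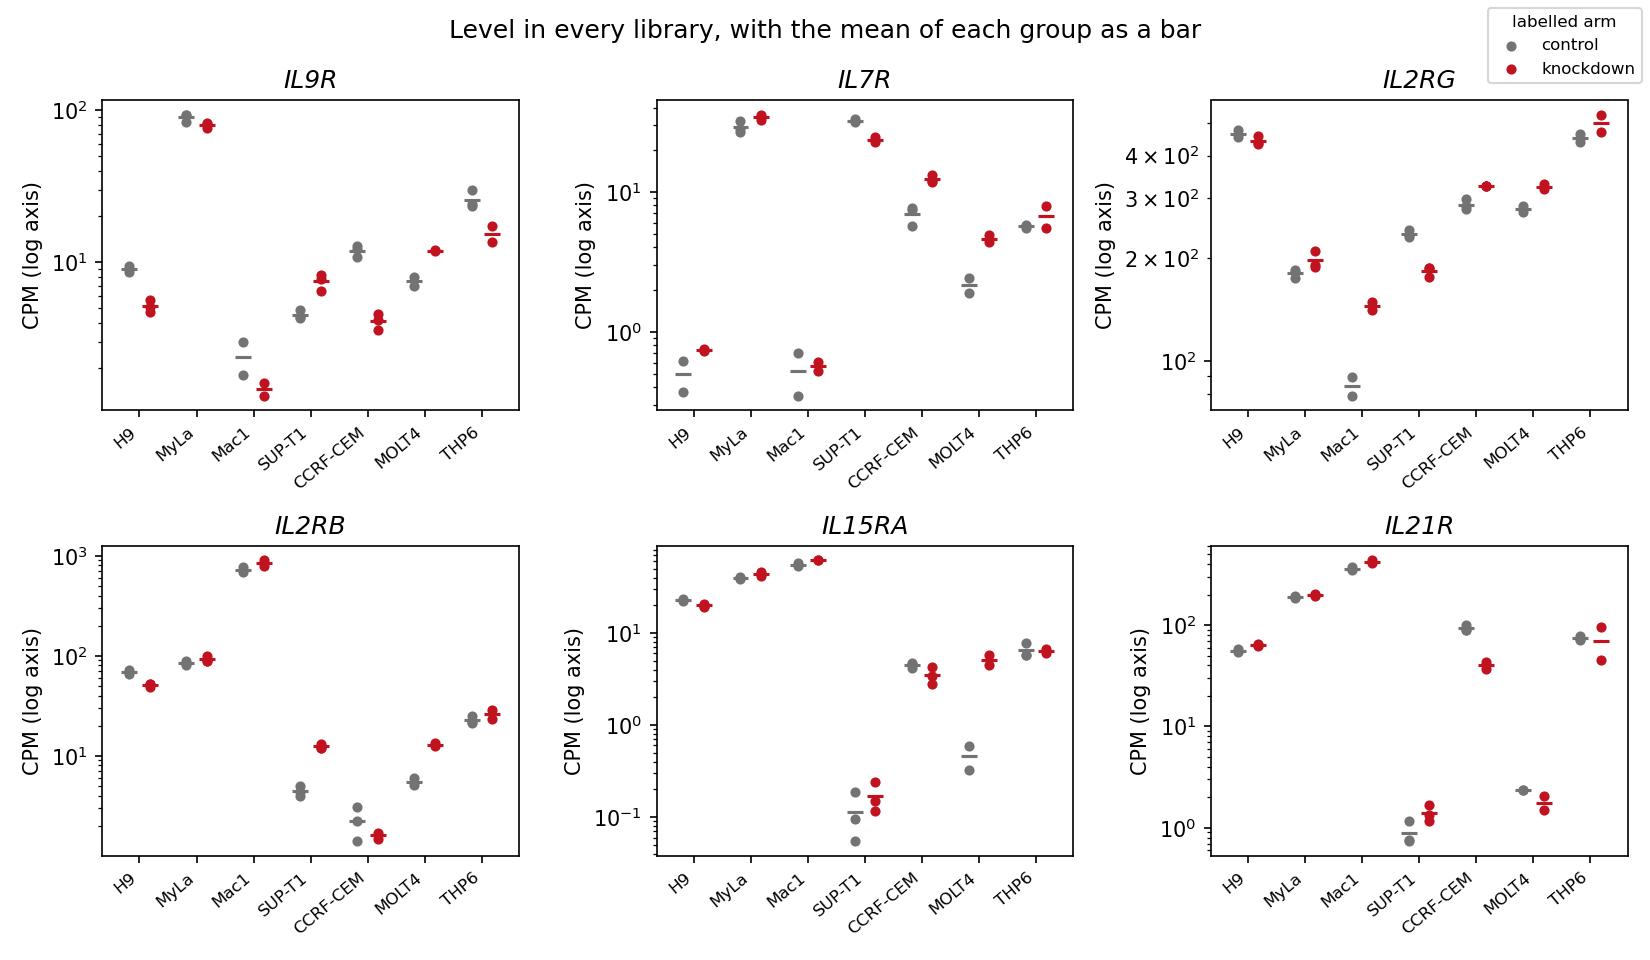
CPM of IL9R, IL7R, IL2RG, IL2RB, IL15RA and IL21R in every library on a log axis, by line and arm, with a bar at each group mean. The MOLT4 knockdown libraries of IL15RA (5.75 and 4.45) stand above their controls (0.324 and 0.596), and IL9R is lower in CCRF-CEM knockdowns and higher in MOLT4 knockdowns.

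Counted by line, the edgeR test called 1 of the 10 genes in H9, which was lower, where it called 1.82% of all tested genes (0.852% higher, 0.965% lower). In MyLa it called 0 (1.88% of all genes, 1.02% higher and 0.861% lower). In Mac1 it called 3 higher and 1 lower (7.89% of all genes, 5.54% and 2.35%). In SUP-T1 it called 2 higher and 2 lower (16.7%, 8.14% and 8.57%), and in CCRF-CEM also 2 and 2 (8.44%, 3% and 5.43%). In MOLT4 it called 5 higher and 1 lower (19.2%, 8.88% and 10.3%), and in THP6 1 and 1 (7.4%, 5.56% and 1.84%). In MyLa 2 members had an unadjusted p under 0.05, and DESeq2 called 0 members and 616 genes. With MyLa replicate numbers as a block, 0 members and 243 genes were called, in place of 397 genes without it. In H9 the block gave 0 members and 220 genes, in place of 1 and 384. The THP6 responses depended on which knockdown library was kept, with 1 left in that arm. Without knockdown 1 the log2 fold change of IL21R was -0.71 in place of -0.08. Without knockdown 2 that of JAK3 was 0.09 in place of 0.39. The Mac1 count was 1 or 2 when any of its libraries was left out. Median log2 fold changes of the members ran from -0.28 in CCRF-CEM to 0.20 in Mac1, beside 0 over all tested genes in each line. These medians include members with too few counts for a response, such as IL2RA in CCRF-CEM (-1.97).

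**Figure D3:**
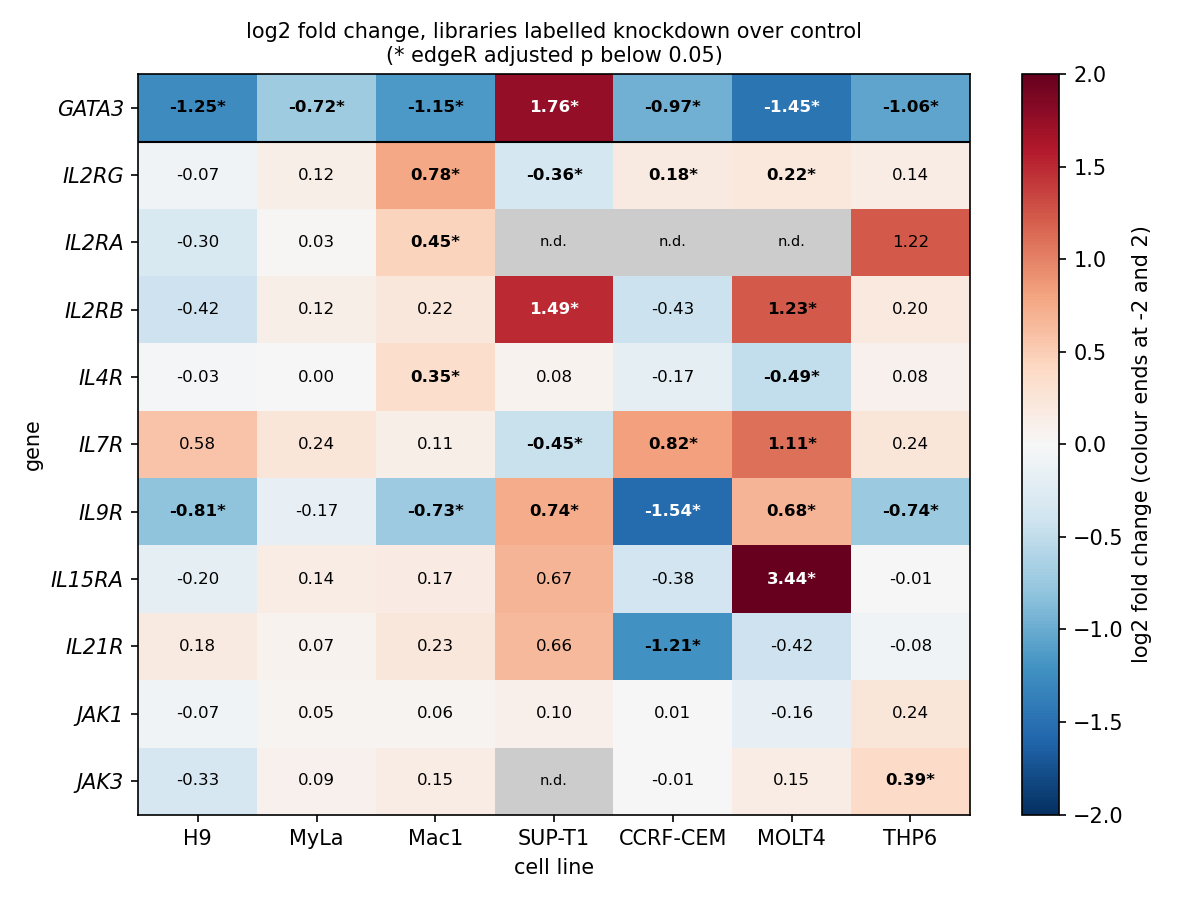
Log2 fold change, knockdown minus control, of GATA3 and the 10 genes in each line, with * for an edgeR adjusted p below 0.05 and n.d. where both arms averaged 3 counts or fewer per library. GATA3 is positive in SUP-T1 alone, and IL15RA in MOLT4 (3.44) is the largest value.

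A joint edgeR test of equal responses over the 7 lines was passed by 9 of 10 genes (35.2% of all genes), and over the 6 lines without SUP-T1 by 9 of 10 (25%). JAK1 was the exception in both (adjusted p = 0.3818 and 0.3495), and it passed over 7 lines without THP6 knockdown 1 (adjusted p = 0.01563). Several of these calls rested on a single line: IL15RA (adjusted p = 0.1003) and IL4R (0.0652) failed without MOLT4, IL21R (0.2595) without CCRF-CEM, IL2RA without Mac1 (0.09274) or H9 (0.05599), and JAK3 without H9 (0.4156) or THP6 (0.1444). Of single libraries, IL2RA failed without Mac1 control 1 (0.05195), and JAK3 without H9 control 1 (0.1573), H9 knockdown 2 (0.06595), THP6 control 1 (0.05936) or THP6 control 3 (0.05684). IL2RG, IL2RB, IL7R and IL9R passed whichever line was left out. The joint test also held lines with too few counts for a response: SUP-T1, CCRF-CEM and MOLT4 for IL2RA, and SUP-T1 for JAK3.

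Each line was then set against the mean of the other 5, leaving SUP-T1 out, a test added after values were seen. In MOLT4 (11.8% of genes) the response was higher by 3.50 for IL15RA (SE 0.247, edgeR adjusted p = 3.873e-11), by 1.47 for IL9R (SE 0.168, adjusted p = 3.471e-07) and by 1.29 for IL2RB (SE 0.166, adjusted p = 2.739e-06) on the log2 scale. IL7R was higher there by 0.71 (adjusted p = 0.0236), and IL4R was lower (-0.54, SE 0.120, adjusted p = 0.002591). In CCRF-CEM (4.73%) it was lower, at -1.21 for IL21R (SE 0.165, adjusted p = 1.816e-05) and -1.18 for IL9R (SE 0.152, adjusted p = 7.839e-06). IL15RA (-1.09, adjusted p = 7.091e-05) and IL2RB (-0.70, adjusted p = 0.03805) were lower there too. IL2RG differed upward in Mac1 (0.66, SE 0.0769, adjusted p = 2.235e-06; 5.86%) and downward in H9 (-0.36, SE 0.0701, adjusted p = 0.004589; 1.17%). IL4R was also higher in Mac1 (0.47, adjusted p = 0.008125), and IL2RB (-0.69, adjusted p = 0.004755) and IL15RA (-0.87, adjusted p = 0.001286) lower in H9. In THP6 (6.28%) IL15RA alone of the members differed (-0.65, adjusted p = 0.01842). The mean that IL15RA was set against in H9, CCRF-CEM and THP6 held the MOLT4 rise. So did the mean for IL2RB in H9 and CCRF-CEM, and the mean for IL2RG in H9 held the Mac1 rise. None of these responses of IL15RA, IL2RB and IL2RG passed the test within its own line. In MyLa (2.01%) no member differed, though without the filter on low counts IL9R did (0.46, adjusted p = 0.04792).

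With the line as the unit of replication, no mean response of a member passed the test. Over 7 lines edgeR called 0 of 10 members (0% of genes; 0 members and 566 genes had an unadjusted p under 0.05, and DESeq2 called 0 members and 1 gene). Over the 6 lines without SUP-T1 it called 0 of 10 (0.0247% of genes). IL7R (mean log2 fold change 0.52, SE 0.154, edgeR adjusted p = 0.6558) and IL9R (-0.56, SE 0.233, edgeR adjusted p = 0.8014) were among 1227 genes with an unadjusted p under 0.05. DESeq2 called 0 members and 69 genes over these 6 lines. IL7R was higher and IL9R lower in 6 and 5 of those 6 lines, passed or not, a count not made for all genes. The difference of response between the classes was called for 0 of 10 (0% of genes; 0 members and 588 genes had an unadjusted p under 0.05, and DESeq2 called 0 members and 7 genes).

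The wider pathway was described with 52 other genes (ligands, partner receptors, adaptors, STATs, inhibitors and targets), of which 50 were tested. Mac1 had 17 higher and 1 lower (5.54% and 2.35% of all tested genes), and MOLT4 10 and 10 (8.88% and 10.3%). SUP-T1 had 6 and 11 (8.14% and 8.57%), CCRF-CEM 8 and 7 (3% and 5.43%) and THP6 2 and 6 (5.56% and 1.84%). H9 had 3 and 3 (0.852% and 0.965%) and MyLa 2 and 3 (1.02% and 0.861%). In Mac1, beside the rise of IL2RG, 5 of 10 inhibitors, a group picked after its values were seen, were called higher and 0 lower (5.54% and 2.35% of all genes): SOCS3 (804 to 1458 CPM), SOCS1 (129 to 203.5), CISH (271 to 384), PTPN6 (36.2 to 50.4) and PTPRC (186 to 328). STAT3 and STAT5B were higher too, and so was the cytotoxic granule gene GZMB (117 to 630 CPM, log2 2.42, edgeR adjusted p = 4.874e-09). In MOLT4, where 5 receptor chains rose, 3 of 5 STAT genes, also picked after their values were seen, fell (10.3% of all genes did): STAT5A from 301.5 to 135 CPM, STAT5B from 403 to 197.5 and STAT3 from 471 to 260.7. The cyclin gene CCND3 (511.5 to 1219 CPM) and the inhibitor SOCS1 (3.06 to 12) rose there, and CCND2 fell (7.72 to 1.52). In CCRF-CEM, where IL9R and IL21R fell, STAT5A fell from 455 to 270.4 CPM and the quiescence factor KLF2 rose from 1.59 to 7.64. In MyLa, where no receptor chain passed, the ligand gene IL9 rose from 19.6 to 40.3 CPM (log2 1.04, adjusted p = 0.004996) and the survival gene BCL2L1 fell from 348 to 237. H9 had a fall of OSM (20.1 to 11.4 CPM) and a rise of PIM2 (119 to 155). In SUP-T1, STAT5A was higher (5.52 to 11 CPM) and the kinase gene PIM1 lower (24.4 to 11.5) in the libraries labelled knockdown. In THP6 the endosomal adaptor gene STAM fell from 28.9 to 17.4 CPM.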

How the data were processed

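Per the submitters' processing notes, the authors trimmed reads with cutadapt 2.3, aligned them with STAR 2.7.8a to GRCh38 and made expected counts per gene with RSEM 1.3.3. The deposited expected counts were whole numbers. No source used here gives the annotation release or the strand setting, and without strand, reads of overlapping genes on opposite strands cannot be told apart. Gene coordinates come from GENCODE 29, which holds 96.5% of the 60628 identifiers, and promoter start sites come from RefSeq.

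The members, gene lists and tests were chosen with earlier results of these data known. edgeR 4.0.16 (R 4.3.3, limma 3.58.1) fitted all 36 libraries with TMM scaling, filterByExpr (21138 genes), 1 mean per line and arm, quasi-likelihood F tests and Benjamini-Hochberg adjustment at 0.05. Tests over lines used counts summed per line and arm (20773 genes over 7 lines, 20253 over 6, 18565 at baseline). Alternatives were no filter, 10 counts in 2 libraries as filter, limma-voom, DESeq2 1.42.0, its size factors alone, separate fits, a minimum absolute log2 fold change of 1, a replicate block and leaving out libraries or lines. The tests were also run on data with known changes. Figures used matplotlib 3.10.9.

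All 10 members were named. Of the pathway genes, those with the 3 lowest adjusted p per line were named by rule. The inhibitors and STAT genes of Mac1 and MOLT4 and the ligand IL15 were chosen after their values were seen. Over 17 pairs of libraries with the same number, residuals correlated at -0.231 to 0.364. All 3 in MyLa were over 0.1 (0.254 to 0.301), so MyLa was also read with the block. The pairs of H9 were over 0.1 too (0.162 and 0.364), and with the block H9 lost its call of IL9R (edgeR adjusted p = 0.07642). The labels give no source for a pairing. Correlations of levels used log2(CPM + 0.5).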

Additional observations from a re-analysis of the deposited data

Results flagged for a closer look

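The response to the hairpin differed between lines for 9 of the 10 genes, by the joint edgeR test of equal log2 fold changes over 7 lines, which 35.2% of all tested genes passed. Without SUP-T1, where GATA3 was higher in the libraries labelled knockdown, 9 of 10 passed again (25% of all genes). SUP-T1 gives an end of the range for IL9R, IL2RB, IL2RG, IL7R and IL21R below. The adjusted p was 1.045e-09 for IL15RA, whose log2 fold change ran from -0.38 in CCRF-CEM to 3.44 in MOLT4. It was 1.046e-09 for IL9R (-1.54 in CCRF-CEM to 0.74 in SUP-T1), 6.883e-09 for IL2RB (-0.43 in CCRF-CEM to 1.49 in SUP-T1) and 1.287e-08 for IL2RG (-0.36 in SUP-T1 to 0.78 in Mac1). IL7R had 1.067e-05 (-0.45 in SUP-T1 to 1.11 in MOLT4) and IL21R 1.315e-05 (-1.21 in CCRF-CEM to 0.66 in SUP-T1). The adjusted p was 0.002532 for IL4R (-0.49 in MOLT4 to 0.35 in Mac1) and 0.03611 for JAK3 (-0.33 in H9 to 0.39 in THP6). It was 0.0233 for IL2RA, from -0.30 in H9 to 1.22 in THP6 among lines with enough counts. These 2 tests also held lines with too few counts for a response: SUP-T1, CCRF-CEM and MOLT4 for IL2RA, and SUP-T1 for JAK3.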

How the results depend on the processing

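No call of a member changed direction under any alternative run. Of the counts of members called within lines, H9 (1) was 2 with no filter, limma-voom, separate fits and DESeq2. In H9 DESeq2 called 658 of all genes in place of 384. MyLa (0) was 1 and THP6 (2) was 0 in separate fits, and THP6 was 1 with limma-voom. Calls over all genes were not counted with no filter, limma-voom or separate fits. With a minimum absolute log2 fold change of 1 the counts were 0 in H9, Mac1 and THP6, 1 in SUP-T1, 2 in CCRF-CEM and 3 in MOLT4. With the replicate block they were 0 in H9 (IL9R, adjusted p = 0.07642), 1 in Mac1 and 1 in THP6. Leaving out each library gave 1 to 2 in Mac1 (4 in all libraries), 1 to 7 in THP6, 3 to 4 in CCRF-CEM, 5 in MOLT4, 4 in SUP-T1, 1 in H9 and 0 in MyLa. The 7 in THP6, without knockdown 1, were IL2RG, IL2RA, IL2RB, IL9R, IL21R, JAK1 and JAK3. It gave 8 to 10 for unequal responses and 45 to 47 of 60 for neighbouring lines. Between classes at baseline the count (0) was 4 with DESeq2, which called 1479 genes in place of 52, and 1 without H9. The block also lowered the calls over all genes, from 384 to 220 in H9 and from 1564 to 472 in THP6, and the labels give no reason to pair libraries by number. In Mac1, MOLT4 and one arm of H9 and THP6, leaving out a library left 1 sample in an arm, which was assumed to vary like the other groups. For the test of 1 line against the other 5, chosen after seeing the data as were its alternatives, DESeq2 size factors changed no call, and no filter added calls of IL9R in MyLa, IL21R in H9 and Mac1, and JAK3 in H9 and THP6. The set of 3 genes closest to a member shared 0 (IL2RG), 1 (IL7R) and 1 (JAK3) with the set over 14 group means. Depth limits IL2RA in SUP-T1, CCRF-CEM and MOLT4 and JAK3 in SUP-T1, where no response is given. IL2RA in THP6 rests on 2 to 18 counts per library, and its log2 fold change of 1.22 (adjusted p = 0.1382) was 1.93 without knockdown 1.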
